A study of Mus musculus with 12 samples.

Results

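Pax3 and Pax7 are the paired box transcription factors that mark muscle progenitors, and their RNA was followed here in tongues of mouse embryos at day 13.5 of gestation on Affymetrix whole-genome arrays. They are 2 of the 18193 genes that could be named from a probe set with 1 gene symbol. All their single-symbol probe sets were taken, 2 of Pax7 and 3 of Pax3 among 45101 probe sets, and the brightest of each gene over the 12 arrays gave its main value, a choice that does not look at genotype. The mutant group was 6 tongue samples of the genotype Myf5-Cre;Smad4flox/flox, and the control group was 6 tongue samples of the genotype Myf5-Cre;Smad4flox/+, all at E13.5 on C57BL/6J. Both groups therefore carried Myf5-Cre and at least 1 floxed copy of Smad4, and the controls were not wild type. The Cre follows Myf5, so cells that never express Myf5 keep Smad4, and whole tongue RNA was measured. Nothing used here states the litters, how many tongues went into a sample or whether the Cre sits in the Myf5 locus.

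Pax3 and Pax7 are close relatives that bind DNA through a paired domain and a homeodomain. Tongue muscle comes from cells of the occipital somites, which migrate along the hypoglossal cord and express Pax3. Pax7 is kept by the proliferating progenitors that later settle as satellite cells, and both factors act upstream of Myf5 and Myod1, which commit cells to muscle. Pax3 is also made in neural crest and its Schwann cell and pigment cell derivatives, and Pax7 in part of the cranial neural crest. In whole tongue RNA, fewer cells of a type and less RNA per cell cannot be told apart.

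Smad4 transduces TGF-β and BMP signals to DNA, and its best known recognition sequence holds the letters CAGAC. The 300 bases around the Pax7 start site held that motif once in RefSeq's sequence of GRCm38.p6, 101 bases before the start site. The stretch around it, chr4:139833052-139833081 on the minus strand, is shown because it holds the only CAGAC match in that window. The motif is in capitals as it reads on the strand of the gene:
Pax7: tggaaggggcgcGTCTGcaaccgggtgggg
The search covered both strands, and 49.6% of the 32851 promoter windows of the same length held CAGAC or its complement, so a match is common. The shorter SMAD half-site GTCT, held by 88.0% of windows, matched 3 times in the Pax7 window, including inside the stretch shown. The GC-rich SMAD element GGCGCC, held by 11.9% of windows, had no match in the Pax7 window. Nor had the E-box CANNTG bound by the Myf5 family, held by 72.3%. Shorter GC-rich SMAD elements were not searched for. These are matches of letters only, and no binding was measured.

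Across the whole series the arrays were alike, with correlations between them from 0.991 to 0.997. Their first principal component separated the genotypes completely, and mutants 1 and 2 lay at its far end. Control 3, mutant 4 and mutant 6 gave signal of both Xist and Y-linked genes. The brightest Smad4 probe set read 12.14 ± 0.27 in mutants and 12.29 ± 0.07 in controls (adjusted p = 0.427), but nothing used here says whether it lies in the floxed stretch, so it does not check the genotype. Values below are log2 signals made with RMA, as means ± SD over the 6 arrays of a genotype unless stated, and adjusted p values come from limma over all genes.

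Pax7 fell in the mutant tongue, with every mutant array below every control array, while Pax3 was called in neither direction. The brightest Pax7 probe set, 1444596_at, read from 7.17 on mutant 4 through a median of 7.74 to 8.16 on mutant 5. On the control arrays it read from 8.67 on control 1 through a median of 9.12 to 9.32 on control 6. The groups did not overlap, and 0.51 log2 units lay between the highest mutant and the lowest control. The means were 7.73 ± 0.38 in mutants and 9.09 ± 0.23 in controls, a difference of -1.35 ± 0.16 (SE, 95% interval -1.69 to -1.01, adjusted p = 0.000338), or 2.55-fold lower in mutants. Of all 18193 genes, 4.80% passed as lower in the mutant and 2.90% had every mutant below every control. Pax7 was the 21st of all genes in order of log2 fall.

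The other Pax7 probe set, 1452510_at, gave the same result from a dimmer signal. Its lowest, median and highest values were 6.23, 6.28 and 6.80 on mutant arrays and 7.33, 7.79 and 7.95 on control arrays, again without overlap (2.35% of the named probe sets were so placed). The difference was -1.26 ± 0.14 (SE, adjusted p = 0.000495 over all probe sets), or 2.39-fold lower in mutants, and 3.61% of the 34945 named probe sets passed in that direction. Mutants 5 and 6 had the highest Pax7 signal of the mutants on both probe sets. On the dimmer one the other 4 mutants lay between 6.23 and 6.29, close to 6.13, the median of all probe sets on these arrays. RMA compresses changes of dim signals, so a fold measured there can be understated.

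The fall of Pax7 did not rest on 1 array. With each array left out in turn the difference ran from -1.44 to -1.24, and it passed in all 12 fits (highest adjusted p = 0.00135). Among the 3 mutants and 3 controls with high Xist it was -1.15 (adjusted p = 0.114), and among the 3 mutants and 3 controls with low Xist -1.56 (adjusted p = 0.0137). With control 3, mutant 4 and mutant 6 left out it was -1.31 (adjusted p = 0.00597).

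**Figure D1:**
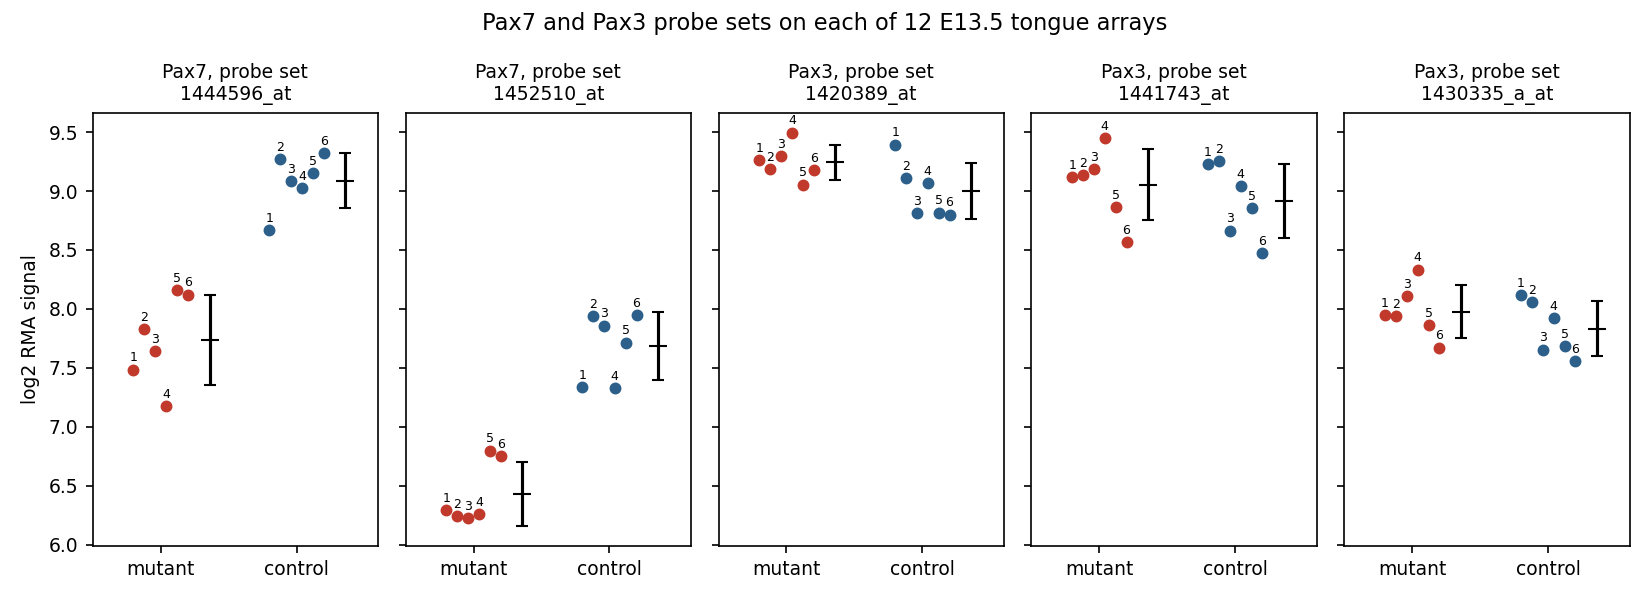
Log2 RMA signal of the 2 Pax7 and 3 Pax3 probe sets on each array, with mutants left of controls, numbers giving the replicate, and bars the mean ± SD of 6 arrays. Both Pax7 probe sets lie lower on every mutant array than on any control array, and the groups overlap on every Pax3 probe set.

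Pax3 differed little between the genotypes. Its brightest probe set, 1420389_at, read 9.05 on mutant 5, 9.23 at the median and 9.49 on mutant 4, and in controls 8.80 on control 6, 8.94 at the median and 9.39 on control 1. The groups overlapped, although all 6 mutants were above the control median. The means were 9.25 ± 0.15 in mutants and 9.00 ± 0.24 in controls, a difference of 0.25 ± 0.10 (SE, 95% interval 0.02 to 0.47) that did not pass (adjusted p = 0.153). The upper end of the interval is a 1.38-fold rise. As background, 6.30% of genes passed as higher in the mutant and 3.40% had every mutant above every control.

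The dimmer Pax3 probe sets showed smaller differences of the same sign and were not called, where 3.87% of probe sets passed as higher and 2.42% had every mutant above every control. Probe set 1441743_at read 8.57, 9.13 and 9.45 (lowest, median and highest) in mutants and 8.47, 8.95 and 9.25 in controls, a difference of 0.14 ± 0.15 (SE, 95% interval -0.20 to 0.47, adjusted p = 0.697). Probe set 1430335_a_at read 7.67, 7.94 and 8.33 in mutants and 7.56, 7.80 and 8.12 in controls, a difference of 0.15 ± 0.12 (SE, 95% interval -0.11 to 0.40, adjusted p = 0.549). Mutant 4 was the highest mutant on all 3 Pax3 probe sets. Control 1 had the highest Pax3 and the lowest Pax7 of the controls on the brightest probe sets. Without control 1 the Pax3 difference was 0.32 and passed (adjusted p = 0.0273), and over the leave-one-out fits it ran from 0.20 to 0.32. No other of the 25 alternatives gave a Pax3 call.

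The members changed unequally. The log2 difference between Pax7 and Pax3 within an array was compared between genotypes, which removes anything that scales both signals alike. It shifted by -1.60 in mutants relative to controls, a 3.03-fold change of the ratio (exact 2-sided permutation p = 0.00216, the smallest that 6 against 6 arrays allow), and 6 of 6 mutants lay under the lowest control. Set against the control mean, the ratio was -2.41 on mutant 4, the lowest, -0.98 on mutant 5, the highest mutant, and -0.81 on control 1, the lowest control. Mutant 5 and control 1 were thus the arrays where the groups came closest. Pax7 alone already had every mutant below every control, as had 2.90% of all genes. The shift of the ratio and its separation therefore carry the fall of Pax7 and do not by themselves show a change of Pax3. Over all 6 pairings of a Pax7 with a Pax3 probe set, a comparison added after the data were seen, the shift ran from -1.60 to -1.39 with an exact permutation p of at most 0.00433.

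Within the mutant group, arrays with less Pax7 had more Pax3. Pearson's r was -0.93 (exact permutation p = 0.00556) and Spearman's rho -0.94 (exact permutation p = 0.0167) over the 6 mutants. Without mutants 4 and 5, the arrays farthest from the Pax7 median, r was -0.82. Over the other 5 pairings of probe sets r ran from -0.89 to -0.68 in mutants and from -0.65 to -0.50 in controls. After adjustment over the 26 correlations computed among Pax7, Pax3 and 6 muscle genes, neither passed (adjusted p = 0.108 for r and 0.217 for rho). In controls r was -0.75 (exact permutation p = 0.0653) and rho -0.60 (exact permutation p = 0.242). Without controls 1 and 6 the control r was 0.26, and without control 1 alone -0.12, so the control relation rests on those arrays. Without control 2 the control r was -0.93 (exact permutation p = 0.0167). Without mutant 4 the mutant r was -0.85 (exact permutation p = 0.0667).

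**Figure D2:**
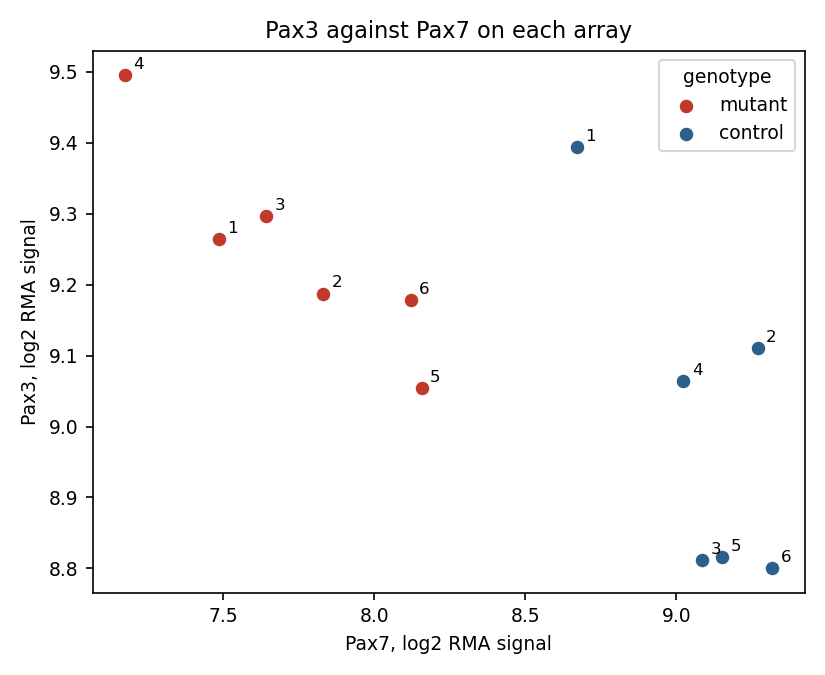
Log2 RMA signal of the brightest Pax3 probe set (vertical axis) against that of Pax7 (horizontal axis), with a point for each array and its replicate number. Mutants lie to the left, at 7.17 to 8.16 for Pax7, and run downward to the right, and control 1 stands apart from the other controls.

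No other measured Pax gene was called. Pax9, which is needed for palate and taste papillae and is made in oral mesenchyme and epithelium, read 8.41 ± 0.31 in mutants and 8.18 ± 0.28 in controls (0.23, adjusted p = 0.393). Pax4 differed by -0.19 (adjusted p = 0.207), Pax1 by -0.10 (0.770), Pax8 by -0.08 (0.562), Pax6 by -0.07 (0.629) and Pax5 by 0.05 (0.826). The brightest probe sets of Pax1, Pax5, Pax6 and Pax8 were under the median of all probe sets on average, so little can be said of these genes in the tongue. Of 6 measured members of this family list 0 passed by limma, 0 had an unadjusted p under 0.05, and the list median was -0.07, where the median of all genes was 0.0083. Over all 18193 genes 11.1% passed by limma in either direction, and 4509 had an unadjusted p under 0.05.

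**Figure D3:**
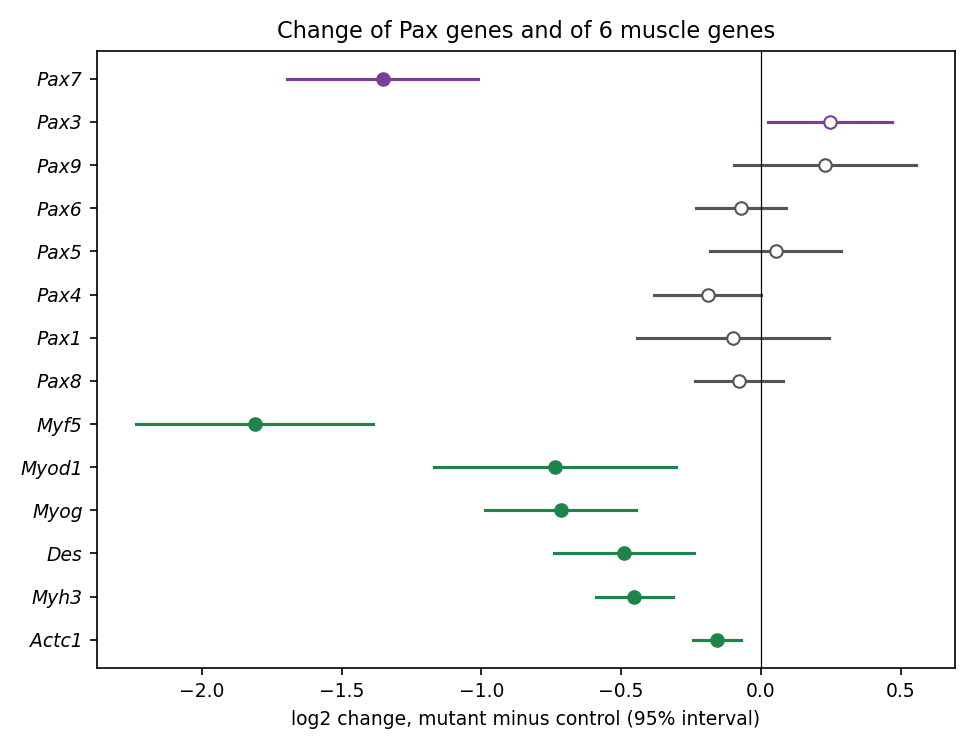
Log2 change, mutant minus control, with 95% intervals from limma for Pax7 and Pax3 (purple), the other measured Pax genes (grey) and 6 muscle genes (green). Filled points passed at an adjusted p under 0.05. Pax7 (-1.35) lies between Myf5 (-1.81) and the other muscle genes, and Pax3 (0.25) lies on the other side of 0.

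Muscle genes downstream of the Pax factors fell by different amounts. Myf5, the determination factor that drives the Cre in these embryos, read 8.56 ± 0.47 in mutants and 10.37 ± 0.30 in controls (-1.81 ± 0.20 SE, adjusted p = 0.000283). Myod1, the other determination factor, fell by 0.74 and Myog, which drives differentiation, by 0.72 on the log2 scale. Des, which encodes the intermediate filament desmin, fell by 0.49, the embryonic myosin Myh3 by 0.45 and cardiac actin Actc1, the main actin of embryonic muscle, by 0.16. Actc1 averaged 14.51 in mutants and 14.67 in controls, near the highest value on any array (15.09), and whether its change is compressed there was not tested. The Myod1 call ended in 12 of 25 alternatives, among them the unequal-variance test (adjusted p = 0.134). Without control 3, mutant 4 and mutant 6 the calls of Myod1 (adjusted p = 0.110), Des (adjusted p = 0.138) and Actc1 (adjusted p = 0.122) all ended.

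Pax7 fell more than Myog, Des, Myh3 and Actc1, and its fall was not separated from that of Myf5. Within arrays, Pax7 dropped by 1.19 more than Actc1, by 0.90 more than Myh3 and by 0.86 more than Des, each with 6 of 6 mutants below all controls (exact permutation adjusted p = 0.00649 over 12 differences). Pax7 alone already had every mutant below every control, so these counts carry its own fall. Relative to Myog, Pax7 shifted by -0.64 (adjusted p = 0.00974), with 4 of 6 mutants below all controls. The shift relative to Myod1 was -0.61 (adjusted p = 0.0307), and this call ended in 7 of 17 alternatives, for example without control 4 (-0.61, adjusted p = 0.0543). Relative to Myf5, Pax7 shifted by 0.46 (adjusted p = 0.0671), with 4 of 6 mutants above all controls. That difference passed without mutant 3 (0.55, adjusted p = 0.0472), without mutant 4 (0.58, adjusted p = 0.0234) and with the mean of all probe sets (0.51, adjusted p = 0.0449).

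Pax3 rose relative to every one of these muscle genes, all of which were called lower on the same arrays. Pax3 itself did not pass by limma (0.25, adjusted p = 0.153). These shifts therefore carry the falls of the muscle genes and do not by themselves show a rise of Pax3. The shift was 2.06 relative to Myf5, with 6 of 6 mutants above all controls (adjusted p = 0.00649). It was 0.98 relative to Myod1 and 0.96 relative to Myog, each with 5 of 6 mutants above all controls (adjusted p = 0.00742). Relative to Myh3, Des and Actc1 it was 0.70, 0.74 and 0.40 (adjusted p = 0.00742, 0.0115 and 0.0182). With control 3, mutant 4 and mutant 6 left out, the shifts relative to Des (0.57, adjusted p = 0.0693) and Actc1 (0.31, adjusted p = 0.0667) did not pass, with fewer arrays tested, and with the mean of all probe sets that to Actc1 was 0.33 (adjusted p = 0.0541). Unequal changes of different probe sets also carry each probe set's own compression, which was not tested.

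**Figure D4:**
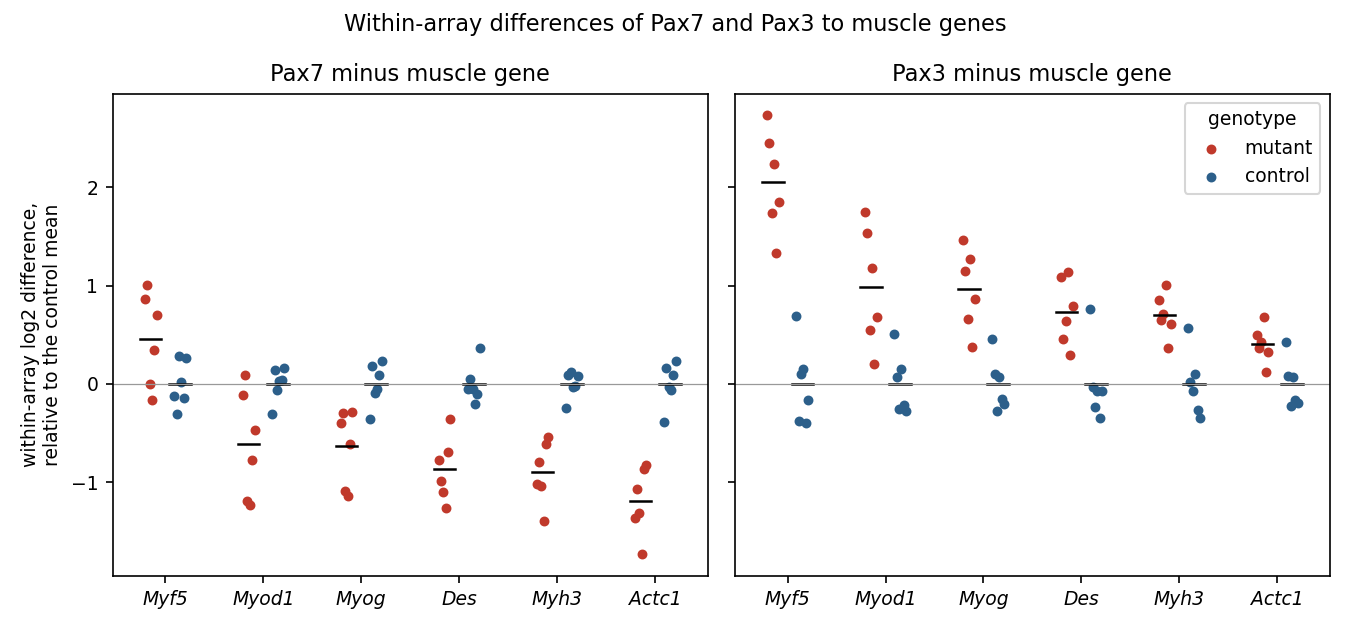
Within-array log2 difference of Pax7 (left) and Pax3 (right) to each of 6 muscle genes, set to 0 at the control mean, with a point for each array, mutants left of controls, and lines at group means. Pax7 lies lower relative to all but Myf5 in mutants, by 0.61 to 1.19, and Pax3 lies higher relative to all 6, by 0.40 to 2.06.

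Genes described in mouse as targets of Pax3 or Pax7, or as opposed to Pax3, changed in part. Of 11 measured, 6 fell and 2 rose (median -0.41), where 4.80% of all genes passed as lower and 6.30% as higher. Besides Myf5 and Myod1, those that fell included Fgfr4, the FGF receptor of muscle progenitors, at 7.89 ± 0.27 in mutants and 8.81 ± 0.23 in controls (-0.92, adjusted p = 0.000688), and Dmrt2, a doublesex-related factor of the dermomyotome (-0.63, adjusted p = 0.00274). Spry1, an inhibitor of receptor tyrosine kinase signalling, fell by 0.41 (adjusted p = 0.000526). One dim Fgfr4 probe set was flat (-0.01), and its other dim ones differed by -0.91 to -0.23. The members that rose, named after their values were seen, were Foxc1 (0.52) and Foxc2 (0.47). Foxc2 is described as opposing Pax3 when somite cells choose between vessel and muscle, and both are also made by mesenchyme.

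Proteins described as partners of Pax3 and Pax7 were near level. Of 13 measured, 0 fell and 1 rose by limma (median 0.07). Over all genes 4.80% passed as lower and 6.30% as higher, so the 1 rise is near that share. At an unadjusted p under 0.05, 1 was lower and 4 were higher, where 4509 of all 18193 genes passed in either direction. The gene that passed by limma was Msx1 (0.38, adjusted p = 0.0136), a homeobox repressor that is also a mesenchyme gene. A dimmer Msx1 probe set gave a change of 0.04 (adjusted p = 0.869 among probe sets). The Msx1 call ended without mutants 1 and 2 (0.31, adjusted p = 0.0900).

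Among other transcription factors and coactivators of muscle progenitors, 17 were measured, of which 5 fell and 2 rose (median -0.36). Over all genes 4.80% passed as lower and 6.30% as higher. Eya2, a coactivator of homeobox factors, read 7.49 ± 0.29 in mutants and 8.25 ± 0.13 in controls (-0.76, adjusted p = 0.00112), and Eya4 fell by 0.45 (adjusted p = 0.0126). Eya1, named after its values were seen, went the other way and rose by 0.56 (adjusted p = 0.0344). The Eya4 call ended without mutants 1 and 2 (-0.37, adjusted p = 0.0842) and without control 3, mutant 4 and mutant 6 (-0.44, adjusted p = 0.0759). Six2, a homeobox factor, fell by 0.92 (adjusted p = 0.0229), a call that ended without mutant 1 (-0.81, adjusted p = 0.0563) or mutant 4 (-0.89, adjusted p = 0.0525). Dach2, a partner of the EYA coactivators, rose by 0.32 (adjusted p = 0.0263), a call that ended without mutants 1 and 2 (0.24, adjusted p = 0.159). Mutants 1 and 2 stood apart in this list. Tcf21, a factor of head muscle and mesenchyme named after its values were seen, read 4.86 and 4.44 on them and 7.78 to 8.16 on the other mutants, against 7.71 to 8.05 in controls. Msc, Tbx1, Pitx3, Meox1 and Lbx1, named likewise, were also lowest on those arrays. Without mutants 1 and 2 the list had 2 falls and 0 rises by limma, and over 24 alternatives 2 to 8 falls and 0 to 4 rises. With those 2 arrays left out, 496 of all genes passed as lower and 379 as higher.

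Surface and Notch genes of myoblasts and satellite cells also split. Of 17 measured, 6 fell and 3 rose (median -0.10), where 4.80% of all genes passed as lower and 6.30% as higher. The rises were Vcam1 and, named after their values were seen, Tenm4 (0.41, adjusted p = 0.0189) and Cd34 (0.40, adjusted p = 0.0144). The Notch effector Heyl fell by 0.63 (adjusted p = 0.000346), the laminin receptor subunit Itga7 by 0.69 (adjusted p = 0.000458) and Megf10, an EGF-repeat receptor of satellite cells, by 0.68 (adjusted p = 0.00134). Vcam1, an adhesion molecule of satellite cells that mesenchyme and endothelium also make, rose by 0.67 (adjusted p = 0.00197), and its dimmer probe sets differed by 0.58 (adjusted p = 0.000808 among probe sets) and 0.05 (0.726). Of 20 differentiation and contractile genes, 19 fell and none rose (median -0.66), led by Myl4, Tnnc1 and Tnni1 by p and with Myh8, the perinatal myosin, lowest at -1.39.

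**Figure D5:**
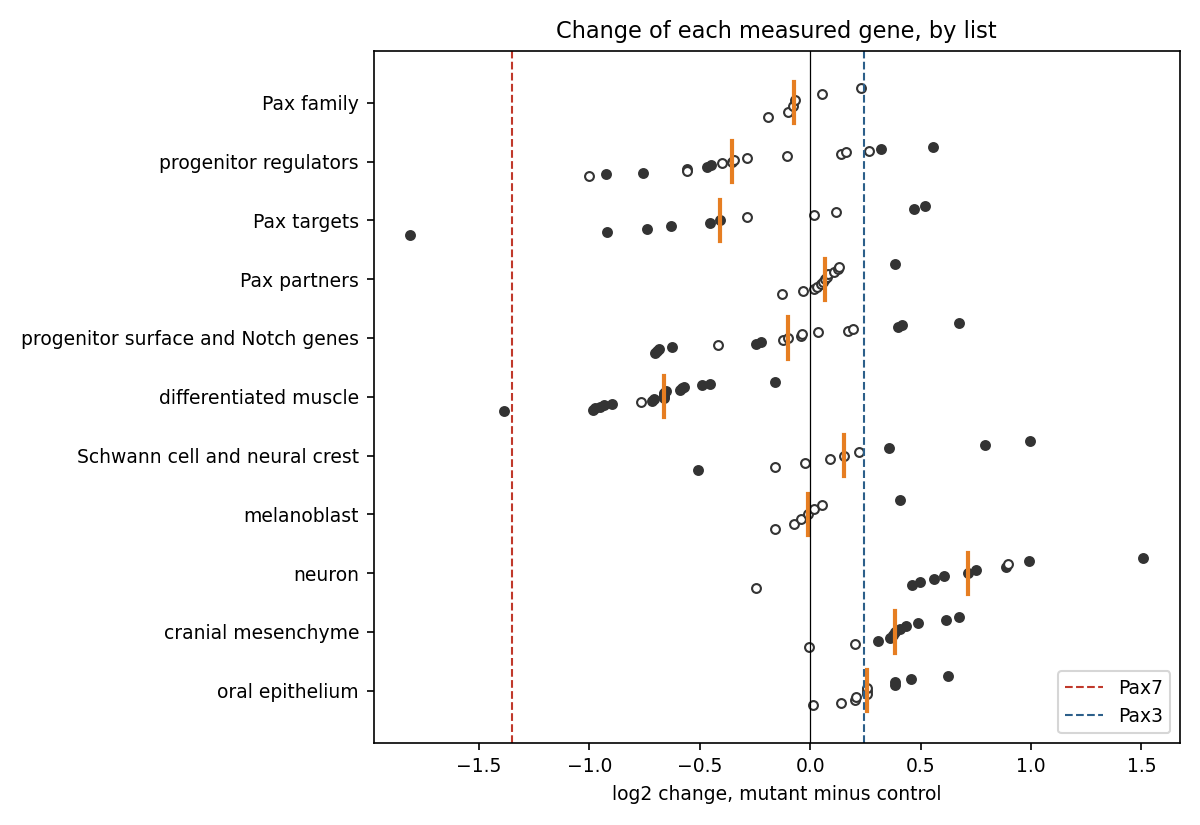
Log2 change of each measured gene, mutant minus control, in 11 gene lists, with filled points for genes that passed and an orange bar at each list's median. Dashed lines mark Pax7 (-1.35) and Pax3 (0.25). Pax7 lies below every gene shown but Myf5 and Myh8.

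Genes of the other cells that make Pax3 were called only in part, where 6.30% of all genes passed as higher and 4.80% as lower. Of 9 measured Schwann cell and neural crest genes, 3 rose and 1 fell (median 0.15), and the mean of the list ran from 8.62 to 8.95 in mutants and from 8.46 to 8.64 in controls. Fabp7, a fatty acid binding protein of immature glia, rose by 1.00 and S100b by 0.79. Mbp rose by 0.36 (adjusted p = 0.0307), a call that ended in 11 of 25 alternatives. Its other probe sets differed by -0.08 to 0.95. Erbb3, the neuregulin receptor of Schwann cells and of migrating muscle precursors, fell by 0.51 (adjusted p = 0.000519). A dim Erbb3 probe set differed by -0.15 (adjusted p = 0.335 among probe sets). Sox10, which defines this lineage, differed by 0.09 (adjusted p = 0.450) and is given although the rule for named genes does not select it. Of 7 melanoblast genes only the receptor Kit rose (0.41, adjusted p = 0.0141), a call that ended without mutants 1 and 2 (0.28, adjusted p = 0.0658). The mean of that list ran from 5.67 to 5.77 in mutants and from 5.63 to 5.81 in controls, and 4 of its members, Dct, Tyr, Tyrp1 and Mlana, were under the median of all probe sets. The part of these cells in the Pax3 values was not tested.

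Many markers of neurons and cranial mesenchyme, and some of oral epithelium, were higher in the mutants. Of 11 neuron markers 9 rose (median 0.71), with list means of 8.26 to 9.09 in mutants and 7.90 to 8.16 in controls. Of 11 cranial mesenchyme markers 9 rose (median 0.39), with list means of 9.46 to 9.75 in mutants and 9.16 to 9.40 in controls. Of 11 oral epithelium markers 5 rose (median 0.26), with list means of 10.79 to 11.12 in mutants and 10.40 to 10.80 in controls. No marker of these lists fell by limma, and 1, a neuron marker, was lower at an unadjusted p under 0.05. Over all genes 6.30% passed as higher and 4.80% as lower by limma, and 4509 of 18193 had an unadjusted p under 0.05. The mean of the differentiation and contractile list ran from 11.02 to 11.55 in mutants and from 11.72 to 12.22 in controls. The part of this shift between tissues in the Pax values was not tested. The median changes of 0.39 in mesenchyme and 0.26 in epithelium stood beside a Pax3 difference of 0.25, and the median of -0.66 in the muscle list beside a Pax7 difference of -1.35.

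Genes with the pattern most like each member were found from the deviations of each array from its group mean, over 12 arrays and 12172 other genes brighter than the median of all probe sets. For Pax7 these were Ampd1, muscle adenosine monophosphate deaminase (r = 0.92), Pde1c, a calmodulin-dependent phosphodiesterase (0.90), Sln, which encodes the calcium pump inhibitor sarcolipin (0.86), and Nes, the intermediate filament nestin of myoblasts and neural progenitors (0.86). All 4 fell in mutants, by 0.83, 0.56, 1.63 and 0.53 on the log2 scale. Ampd1 averaged 6.60 in controls and 5.77 in mutants, where the median of all probe sets was 6.13. It thus passed the brightness filter only through its controls, and its fall among these 4 carries no weight. The call of Pde1c ended with the mean of all its probe sets (-0.12, adjusted p = 0.118). For Pax3 they were Sap30, a subunit of a histone deacetylase complex (r = 0.92), the growth factor Fgf10 (0.87), the kinase Map3k11 (0.87) and the nuclear pore protein Nup54 (0.86). None of these 4 passed, and they differed by 0.19, -0.09, 0.01 and -0.07. The arrays share RNA extracts and normalization, so these values describe likeness on these arrays, and no test was made.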

How the data were processed

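RNA of 12 mouse tongue samples was hybridised to 1 array each. The deposited values are log2 signals per probe set, which the authors made with RMA according to the submitters' processing notes. The log base was taken from their range, 2.57 to 15.09, and nothing used here gives a software version or a batch. Array signals carry no counting depth, so the number of arrays limits the precision. RMA gives all arrays a common distribution, which removes any change that most genes share.

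Of 45101 probe sets, 64 controls were left out, and GEO's platform annotation gave 34945 probe sets 1 symbol, 932 several and 9160 none. Each of 18193 genes took its brightest probe set. Symbols of 34741 probe sets were checked through RefSeq (GRCm38.p6), and 0 changed. Mutants were compared with controls by limma 3.58.1 in R 4.3.3 (lmFit, eBayes, genotype only, 2-sided), and p values were adjusted by Benjamini-Hochberg across the 18193 genes, with calls at 0.05. The fit was tested on simulated data. Ratios within arrays, and correlations within genotype, were tested by exact 2-sided permutation over arrays. Replicates are biological per the labels, but separate litters are not stated, so p values measure only the spread between these samples. No arrays held identical values. A free-text label that describes embryos at another stage contradicts the titles and characteristics and was not used.

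The members, 15 gene lists (158 of 165 entries measured) and tests were chosen with earlier results of these data known. Named genes were the members, the other Pax genes, the 6 muscle genes, up to 4 passing genes of each list by smallest p (or the smallest p where none passed), and the 4 genes most like each member. Names outside the rule are said to be so. Same-numbered mutants and controls deviated together with r of -0.06 to 0.24, and the pair numbered 3 was below 0.1, so replicate numbers were not taken as pairs. The other pairs had r of 0.12 or more, so shared handling by number is not excluded, and a replicate block was run as an alternative. The 18S ribosomal RNA signal was lowest on mutant 6 (13.27) and control 6 (13.74), against 14.19 to 14.37 elsewhere. Without both, Pax7 differed by -1.38 (adjusted p = 0.00136) and Pax3 by 0.22 (adjusted p = 0.252) in limma. Alternatives were other normalization, probe set choice, filter, variance model, array weights, replicate block, unequal-variance test, arrays left out singly or in 3 sets, and, added after the data were seen, a sex covariate from Xist and other probe set pairings.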

Additional observations from a re-analysis of the deposited data

Results flagged for a closer look

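Of 130 groups of 6 values checked over the members and named genes, 6 held an array farther from the rest than Dixon's 95% limit, where chance gives about 1 in 20. None was a value of Pax7 or Pax3. On control 1, Dmrt2 read 7.16 (nearest other control 7.45), Sln 12.38 (12.82), Tnnc1 13.26 (13.38) and Krt15 12.13 (12.74), each the lowest control. Pax4 was lowest on control 6 at 6.16 (nearest 6.38), and Eya4 was highest on control 2 at 10.31.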

How the results depend on the processing

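Pax7 passed as lower in all 25 alternatives (-1.44 to -1.24, highest adjusted p = 0.00973, in the unequal-variance test), and its shift relative to Pax3 kept sign and call in all 22 (-1.76 to -1.39, highest p = 0.0312, the smallest that the within-number permutation allows). Pax3 stayed above 0 in all 25 (0.16 to 0.32) and passed only without control 1 (0.32), with 0.20 to 0.32 over single arrays left out. With the replicate block Pax7 differed by -1.35 (adjusted p = 0.000264) and Pax3 by 0.25 (adjusted p = 0.0998). That block also ended the call of Pax7 relative to Myod1 (adjusted p = 0.102) and gave Pax4 one (-0.19, adjusted p = 0.0468). Genes passing numbered 2020 in all, 875 without mutants 1 and 2, 836 without control 3, mutant 4 and mutant 6, and 1398 to 2103 with single arrays left out. The correlation of Pax7 with Pax3 ran from -0.97 to -0.85 in mutants and from -0.93 to -0.12 in controls with single arrays left out.

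Of 59 other named genes, 38 kept call and direction in all alternatives, 15 lost a call in at least 1 and 3 gained one. Uncalled genes near 0 changed sign. Map3k11 was -0.0012 after quantile normalization, -0.019 without mutants 1 and 2 and -0.023 without control 3, mutant 4 and mutant 6, and -0.015 to 0.060 with single arrays left out. Pax5 was -0.0081 with the mean of probe sets, -0.016 without control 6 and mutant 6, and -0.012 to 0.13 with single arrays left out, and Pax1 ran from -0.18 to 0.012. The cause was not tested. Counts that moved by over 1.5 times somewhere were the rises of progenitor regulators (2, range 0 to 4), oral epithelium (5, 1 to 5), surface genes (3, 1 to 4), Pax targets (2, 1 to 2), and of macrophage, endothelium, melanoblast and Pax partner genes (1, 0 to 1), and the falls of progenitor regulators (5, 2 to 8), Schwann cell genes (1, 1 to 2), Pax partners (0, 0 to 2) and, each 0 with a highest count of 1, Pax family, endothelium and erythroid genes. Low signal limits what can be read from Pax1, Pax5, Pax6 and Pax8.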

Other observations

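Fgfr4, named above among genes described as targets of Pax3 or Pax7, followed Pax7 and ran against Pax3 over the arrays. By deviations from the group means over 12 arrays, it ranked 9 of 18192 genes in likeness to Pax7 (r = 0.83) and 18068 of 18192 in likeness to Pax3 (r = -0.73). Met, another gene of that list, ranked only 2483 in likeness to Pax7 (r = 0.31) and 13668 in likeness to Pax3 (r = -0.21). Besides Fgfr4 and Met, ranks were read for Myf5 and Myod1 only among the genes of that list. Myh3 ranked 62 in likeness to Pax7 (r = 0.74), Myf5 1170 (r = 0.45) and Myod1 1844 (r = 0.37). Pax3 itself ranked 18059 of 18192 in likeness to Pax7 (r = -0.75), so a gene much like Pax7 runs against Pax3 without that being a separate observation. These are descriptions of 12 arrays that share normalization, with no test.

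Of the remaining marker lists, cartilage had 3 of 6 genes higher (Col9a2 by 0.69, Sox9 by 0.44 and Col9a1 by 0.71), macrophages 1 of 6 (Csf1r, 0.21) and endothelium 1 of 8 (Sox18, 0.24). Over all genes 6.30% passed as higher and 4.80% as lower, so a single call in so short a list says little about the list. The Csf1r call ended in 15 of 25 alternatives and the Sox18 call in 3. None of 5 erythroid genes passed in limma. The embryonic globin Hba-x read 12.28 ± 0.25 in mutants and 12.56 ± 0.23 in controls (-0.28, adjusted p = 0.171).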
